A study of Homo sapiens with 18 samples.

Results

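The genes described here are 10 members of the HOXC and HOXD clusters, which were chosen by symbol: HOXC4, HOXC6 and HOXC9, and HOXD3, HOXD4, HOXD8, HOXD9, HOXD10, HOXD11 and HOXD13. They are 10 of the 28063 genes in the deposited tables. They were followed in newly made messenger RNA from 3 human neuroblastoma cell lines, IMR-32, KELLY and SK-N-DZ, which are established lines with amplified MYCN. Cells of each line received 1 uM BRM014, an inhibitor of the chromatin remodelling ATPases SMARCA4 and SMARCA2, or the solvent DMSO. IMR-32 cells engineered to carry SMARCA4 with an auxin-inducible degron (SMARCA4-mAID), a tag that sends the protein to degradation, received 500 uM auxin or ethanol. All 8 of these groups, with 2 libraries each, were given 500 uM 4-thiouridine (4sU) for 2 h so that new RNA could be recognised, and 2 further KELLY libraries had no label. The sources used here state neither how long BRM014 and auxin were applied nor whether the engineered cells are 1 clone. The labels do not say if replicates were grown apart. A p-value here rests on how far the 2 libraries of a group lie from each other, which could be technical spread. That spread is pooled over groups and drawn toward that of other genes.

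HOX genes encode homeodomain transcription factors that set position along the body axis. Within a cluster the order of the genes follows the order of their use, with low numbers used early and toward the head and high numbers later and toward the tail. Polycomb complexes keep unused parts of a cluster silent, while trithorax-group proteins, which include the SWI/SNF ATPases, and retinoic acid favour their expression. Neuroblastoma arises from the sympathetic branch of the neural crest, and HOX genes of these clusters respond to retinoic acid in neuroblastoma cells.

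By GENCODE annotation on GRCh38, all 10 genes are protein-coding and on the plus strand. The HOXC members lie on chromosome 12, with HOXC9 at chr12:53994895-54003337, HOXC6 at chr12:53990624-54030823 and HOXC4 at chr12:54016931-54056030. The HOXD members lie on chromosome 2 in the order HOXD13 (chr2:176092891-176095938), HOXD11 (chr2:176104216-176109754), HOXD10 (chr2:176108790-176119942), HOXD9 (chr2:176122720-176124937), HOXD8 (chr2:176129694-176132695), HOXD4 (chr2:176151222-176153226) and HOXD3 (chr2:176136612-176173102). Several of these genes share exons. HOXC4 and HOXC6 share 484 exonic bases, and HOXD10 and HOXD11 share 452. A joint transcript model, AC009336.2, covers 80.5% of the exonic bases of HOXD4 and 62.2% of those of HOXD3. No source used here states the gene models or strand setting behind the counts, so reads could have been split or dropped among such pairs and the values of these genes are uncertain.

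RefSeq promoters (GRCh38.p14) were found for 7 of the 10 members. Shown here are the 250 bases before the start of 4 of these 7: HOXC4 (chr12:54016638-54016887), HOXD8 (chr2:176129455-176129704), HOXD10 (chr2:176116528-176116777) and HOXD13 (chr2:176092471-176092720), all plus strand and written 5′ to 3′. These 4 changed with BRM014 in SK-N-DZ, as given below. HOXD9 also changed there but had no promoter entry. Capitals mark CACGTG, the core of the E-box, and CCAAT or its reverse complement ATTGG, the CCAAT box.
HOXC4: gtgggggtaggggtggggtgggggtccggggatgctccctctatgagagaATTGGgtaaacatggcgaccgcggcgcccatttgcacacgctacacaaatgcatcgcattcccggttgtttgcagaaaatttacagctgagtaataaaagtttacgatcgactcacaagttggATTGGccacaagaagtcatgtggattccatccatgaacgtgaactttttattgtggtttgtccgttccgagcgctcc
HOXD8: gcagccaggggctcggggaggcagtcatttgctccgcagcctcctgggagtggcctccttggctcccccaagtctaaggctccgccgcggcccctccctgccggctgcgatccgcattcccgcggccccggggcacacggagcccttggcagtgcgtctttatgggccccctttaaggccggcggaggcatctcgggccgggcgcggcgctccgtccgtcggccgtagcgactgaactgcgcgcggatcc
HOXD10: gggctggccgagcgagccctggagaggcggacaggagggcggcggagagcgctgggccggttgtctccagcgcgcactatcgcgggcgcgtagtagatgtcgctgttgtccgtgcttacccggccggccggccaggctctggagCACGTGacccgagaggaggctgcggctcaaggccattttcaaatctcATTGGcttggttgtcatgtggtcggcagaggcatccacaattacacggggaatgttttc
HOXD13: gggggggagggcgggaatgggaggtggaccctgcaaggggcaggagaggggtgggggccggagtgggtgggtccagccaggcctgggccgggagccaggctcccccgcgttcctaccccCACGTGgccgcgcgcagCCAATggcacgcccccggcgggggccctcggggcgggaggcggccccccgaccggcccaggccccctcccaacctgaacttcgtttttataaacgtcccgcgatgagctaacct

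The letters CACGTG stood in 4 of the 7 member promoters (HOXD3, HOXD10, HOXD11 and HOXD13), against 6.35% of 35116 promoters searched over the same length. CCAAT, read on both strands, stood in 5 of the 7, against 32.0%. TAATTA, the core read by many homeodomains, stood in 2 of the 7 (HOXD3 and HOXD11), against 4.35%, and TATAAA in 1 of the 7 (HOXD13), against 10.7%. The promoter of HOXD8 held none of these 4 motifs and had 28 CpG dinucleotides, against a median of 11 over all promoters. HOXD4 had 4 CpG dinucleotides and HOXC4 had 14. These matches describe the letters of the windows only, and the promoter sets shown were chosen after the levels were known.

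Labelled libraries held between 724913 and 1740475 counts over genes, and the 2 unlabelled KELLY libraries held 5395 and 4432. The unlabelled libraries bear on background. All genes together had 0.348% of the KELLY DMSO counts there, and the 10 members had 6 of 771 counts (0.778%). Of these 6 counts, 4 were for HOXD9, all in 1 library. The BRM014 libraries were shallower in IMR-32 (741970 and 775064 counts, against 1438139 and 1148208 with DMSO) and in SK-N-DZ (724913 and 758288, against 1589230 and 1740475). Levels are given as CPM, counts scaled to the gene total of the library, and per kb of the longest transcript where genes are compared with each other. The adrenergic neuroblastoma markers summed to 6197 to 14390 CPM in every labelled library, whereas 4 Schwann cell markers summed to at most 6.90 CPM, 4 leukocyte markers to at most 4.05 and 4 epithelial markers to at most 3.63. In bulk samples, fewer cells of a type and less RNA per cell cannot be told apart. BRM014 acts on the enzymes and auxin on the tagged protein, so RNA counts give no check of either treatment.

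In vehicle-treated cells, the lines differed in several members. HOXD13, the most posterior member of the cluster, was high in KELLY and at or near 0 in the other lines. HOXD9 was lower in IMR-32 than in KELLY and SK-N-DZ, and HOXD3 and HOXC6 were lower in SK-N-DZ than in IMR-32 and KELLY. HOXC4 was the highest HOXC member per kb in all 4 vehicle groups, with 11.7 ± 1.76 CPM per kb (SD, n = 2) in IMR-32, 22.1 ± 0.842 in the SMARCA4-mAID cells, 30.5 ± 0.592 in KELLY and 35.4 ± 10.5 in SK-N-DZ. The share of T, the base that 4sU replaces, ran from 17.0% of the transcript (HOXD11) to 26.3% (HOXD13), and its part in levels between genes was not tested.

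**Figure D1:**
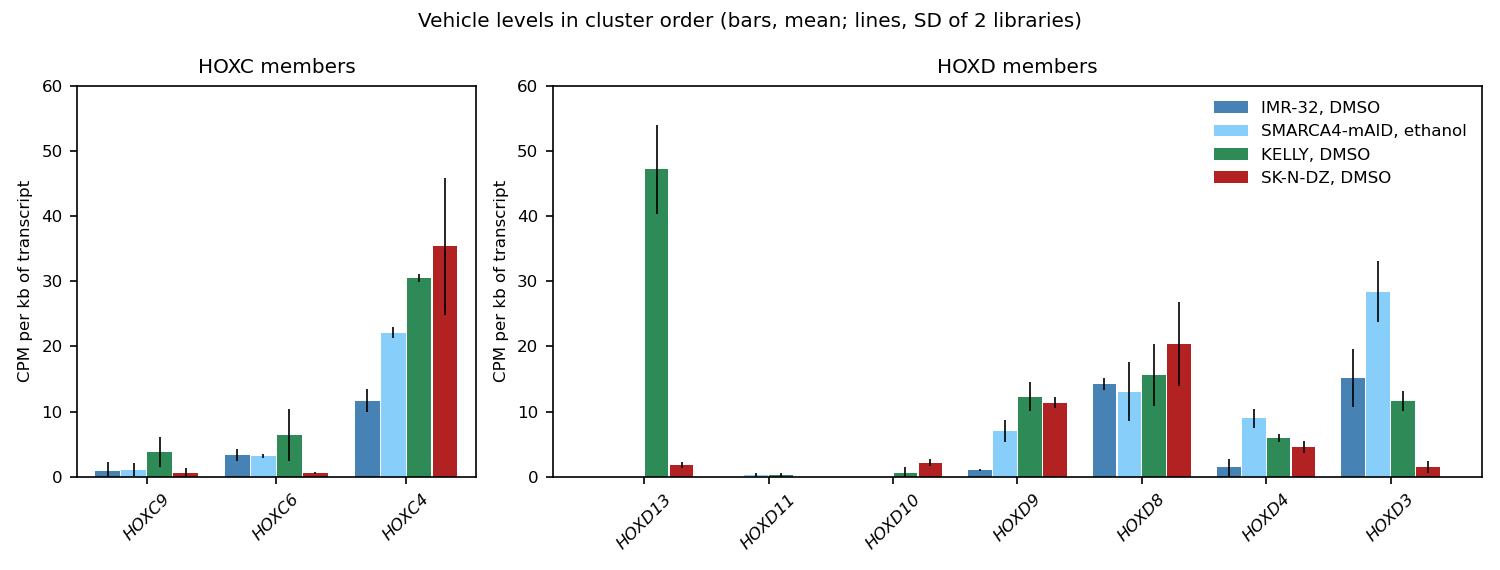
Vehicle levels of the 3 HOXC and 7 HOXD members in cluster order, as CPM per kb of the longest transcript. Bars are means and lines are SDs of 2 libraries. HOXD13 stands at 47.2 in KELLY and at 0 in both IMR-32 groups, and HOXD3 is lowest in SK-N-DZ at 1.48.

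HOXC4, the most anterior HOXC gene, stood at 21.6 and 17.4 CPM in IMR-32 with DMSO, at 51.6 and 50.2 in KELLY and at 46.6 and 71.2 in SK-N-DZ. All KELLY and SK-N-DZ libraries lay above both IMR-32 libraries. The log2 difference from IMR-32 was 1.22 in KELLY (SE 0.36, adjusted p 0.00462 by edgeR's quasi-likelihood test) and 1.44 in SK-N-DZ (SE 0.36, adjusted p 0.000524). Without IMR-32 DMSO replicate 2 the KELLY difference was 1.08 with adjusted p 0.0594. KELLY and SK-N-DZ differed by 0.23 with a 95% interval of -0.41 to 0.86.

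HOXC6, a thoracic-level gene, stood at 11.8 and 7.84 CPM in IMR-32, 27.04 and 10.5 in KELLY cells, with 1.89 and 1.15 in SK-N-DZ. Both SK-N-DZ libraries lay below all the others. The log2 difference of SK-N-DZ was -2.78 from IMR-32 (SE 0.91, adjusted p 0.00872) and -3.56 from KELLY (SE 0.86, adjusted p 0.000596). The first call was lost without IMR-32 DMSO replicate 1 (adjusted p 0.0773) or SK-N-DZ DMSO replicate 2 (0.0685), and the second without KELLY DMSO replicate 1 (0.0524). HOXC9, which also acts at thoracic level, had 4 counts in IMR-32, 17 in KELLY and 3 in SK-N-DZ over both libraries, and none of its differences passed the test.

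HOXD13, which in embryos patterns the digits and the genital region, had 151 and 144 counts in KELLY with DMSO, 94.9 and 117 CPM. It had 0 counts in every IMR-32 and SMARCA4-mAID library, with 5 and 8 counts in SK-N-DZ. By the lower limit of the exact counting interval, KELLY was at least 72.7-fold higher than IMR-32 (adjusted p 6.85e-17). KELLY exceeded SK-N-DZ 26.7-fold, with a counting interval of 15.4 to 50.8 (log2 value for SK-N-DZ against KELLY -4.71, SE 0.48, adjusted p 5.70e-14). SK-N-DZ in turn was at least 2.37-fold higher than IMR-32 (13 against 0 counts, adjusted p 0.00320), a call lost without IMR-32 DMSO replicate 1 (log2 value 5.31).

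HOXD11 and HOXD10 are the next genes along the cluster. HOXD11 had 1 count in KELLY with DMSO and 1 in the SMARCA4-mAID cells with ethanol and none elsewhere, and did not pass the filter on low counts. HOXD10 had 0 counts in IMR-32, 3 in KELLY (all in 1 library) and 14 in SK-N-DZ, where its libraries stood at 5.03 and 3.45 CPM. SK-N-DZ was at least 2.58-fold higher than IMR-32 (adjusted p 0.0300), a call lost with DESeq2 (0.549) and with any 1 of the 4 libraries left out (log2 values 5.08 to 5.63). KELLY, whose HOXD13 was the highest HOXD member, thus had 295 HOXD13 counts beside 1 HOXD11 and 3 HOXD10 counts.

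HOXD9 stood at 2.09 and 1.74 CPM in IMR-32, 20.1 and 25.9 in KELLY cells, with 20.1 and 22.4 in SK-N-DZ. IMR-32 lay well below the other lines, which overlapped each other. The log2 difference from IMR-32 was 3.35 in KELLY (SE 0.63, adjusted p 7.58e-06) and 3.26 in SK-N-DZ (SE 0.63, adjusted p 1.09e-05). HOXD8, its neighbour, was the evenest member, with 27.3 ± 1.68 CPM (SD, n = 2) in IMR-32, 29.97 ± 9.20 in KELLY, and 38.9 ± 12.4 in SK-N-DZ cells. None of the HOXD8 differences between lines passed the test, and their 95% intervals lay between -0.74 and 1.07 on the log2 scale.

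HOXD3, an anterior gene, stood at 43.8 and 28.7 CPM in IMR-32, 30.2 and 25.1 in KELLY cells, with 1.89 and 5.17 in SK-N-DZ. The log2 difference of SK-N-DZ was -3.46 from IMR-32 (SE 0.47, adjusted p 1.52e-09) and -2.90 from KELLY (SE 0.48, adjusted p 5.88e-07). KELLY and IMR-32 differed by -0.55 (adjusted p 0.230), which became -1.12 (0.00878) with a correction for base composition and length. HAGLR, the non-coding RNA read from the opposite strand of the HOXD3 end, was also lowest in SK-N-DZ, at 31.0 ± 4.39 CPM in IMR-32, 32.3 ± 6.78 in KELLY and 6.33 ± 0.832 in SK-N-DZ. It shares 134 exonic bases with HOXD3, and its log2 difference between SK-N-DZ and IMR-32 was -2.42 (SE 0.44, adjusted p 2.63e-06). HOXD4 stood at 2.09 ± 1.97 CPM in IMR-32, 8.76 ± 0.948 in KELLY and 6.65 ± 1.28 in SK-N-DZ cells, and no difference between the lines passed the test. Between KELLY and IMR-32 the HOXD4 value passed with library size scaling (2.11, adjusted p 0.0488), in the fit of only the groups compared (1.98, 0.0416) and without IMR-32 DMSO replicate 2 (3.34, 0.0457).

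Of the 9 members tested, 3 differed between KELLY and IMR-32, where 39.6% of all genes passed. SK-N-DZ and IMR-32 differed in 6 of 9, where 44.1% passed, and SK-N-DZ and KELLY in 3 of 9, where 31.8% passed. These 3 comparisons share their control libraries. HOXD10 and HOXD13 passed the filter on low counts through the groups where they were high, so these counts only describe. In both comparisons with KELLY the share of members that passed was near that of all genes.

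**Figure D2:**
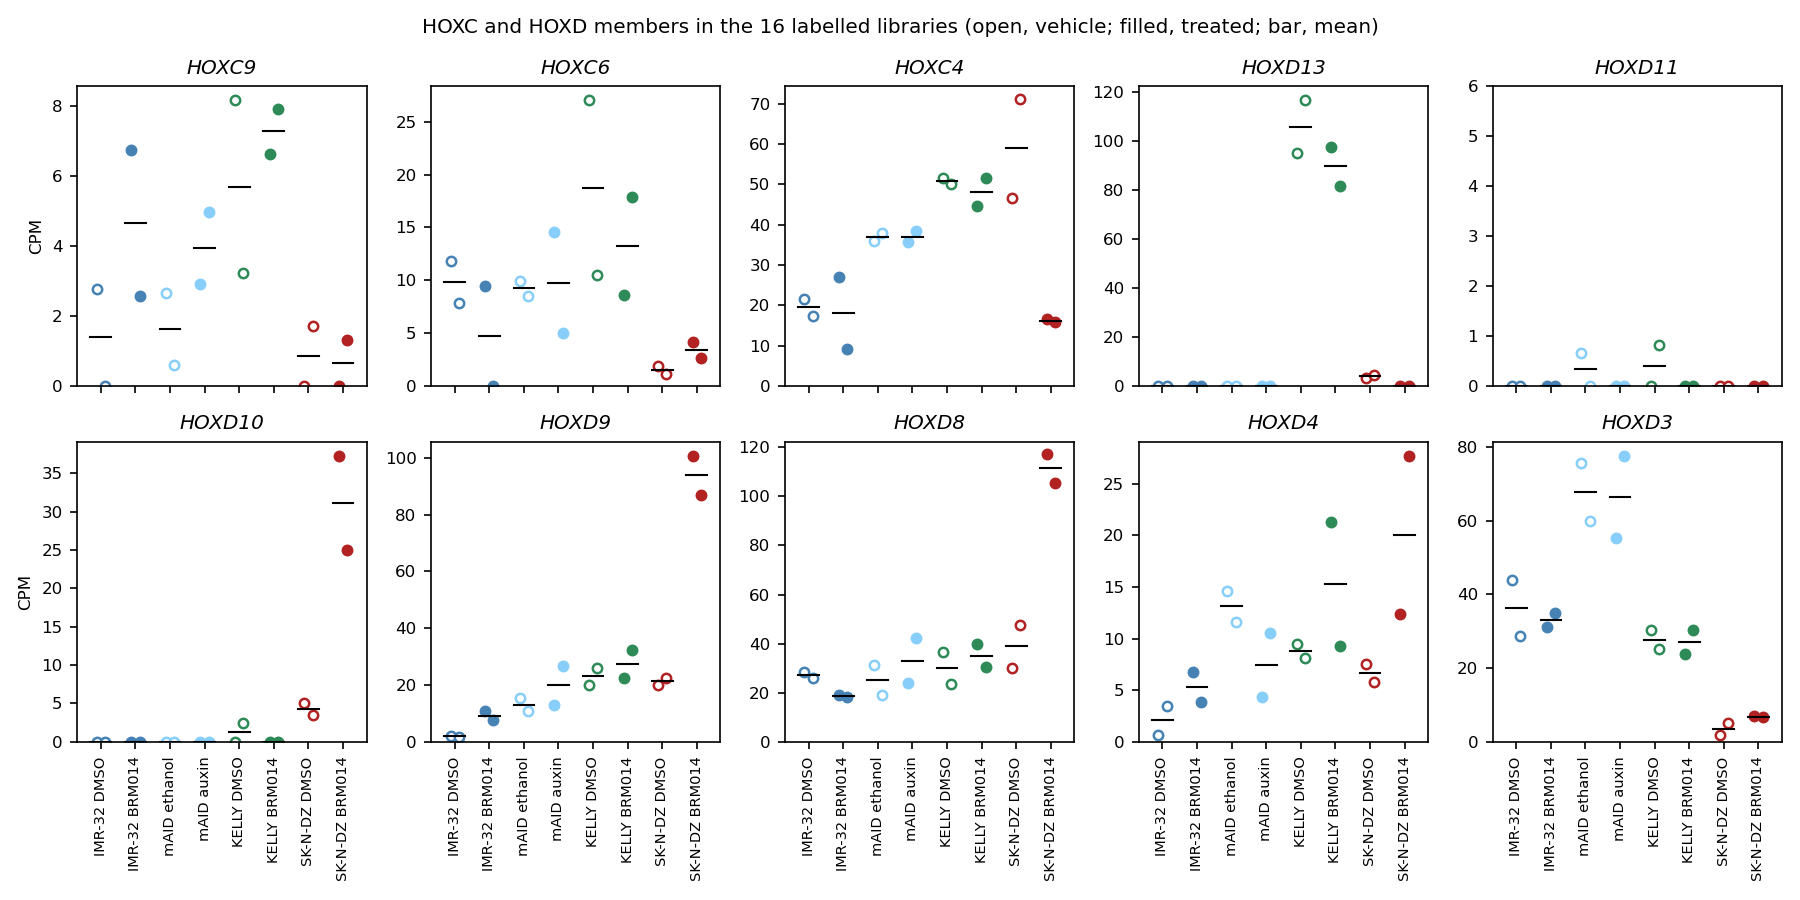
CPM of each member in the 16 labelled libraries. Open points are vehicle libraries, filled points are treated ones, and bars are group means. In SK-N-DZ, HOXD8, HOXD9 and HOXD10 are higher in both BRM014 libraries than in both DMSO libraries, and HOXC4 is lower.

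The SMARCA4-mAID cells, even without auxin, differed from parental IMR-32 cells in some members. HOXD9 stood at 15.3 and 11.0 CPM with ethanol, against 2.09 and 1.74 in the parental cells, a log2 difference of 2.68 (SE 0.67, adjusted p 0.00459). HOXD4 stood at 14.6 and 11.6 CPM, against 0.695 and 3.48, a difference of 2.65 (SE 0.86, adjusted p 0.0445). HOXC4 (0.88, adjusted p 0.170) and HOXD3 (0.86, adjusted p 0.129) also had both engineered libraries above both parental ones but did not pass, although HOXD3 did in the fit of only the groups compared (0.0214). These were 2 of the 9 members tested, where 6.16% of all genes passed. HOXD10 and HOXD13, with 0 counts in both groups, are among the 9 but could not pass. The HOXD4 call was lost with any 1 of the 4 libraries left out (adjusted p up to 0.439) and with a correction for base composition and length (0.0679). The HOXD9 call was lost with any library but the second ethanol library left out (adjusted p up to 0.0769). Engineering, clonal origin and vehicle cannot be told apart here.

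BRM014 changed 5 members in SK-N-DZ. HOXD8, HOXD9 and HOXD10 rose, HOXC4 and HOXD13 fell, and the other 4 tested members did not pass. These are 5 of 9 members, where 19.4% of all genes passed (9.88% higher and 9.55% lower). The median log2 change of the tested members was 1.12, against -0.05 over all genes tested. HOXD10 passed the filter on low counts only through the SK-N-DZ BRM014 libraries and so had to differ, and this count and median are a description that supports nothing. The libraries of the groups did not overlap for 8 of the 10 members, where 56.2% of all genes did not overlap.

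HOXD9 stood at 20.1 and 22.4 CPM with DMSO and at 101 and 87.0 with BRM014 in SK-N-DZ. Both treated libraries lay far above both vehicle libraries. The log2 change was 2.14 (SE 0.41, adjusted p 2.60e-05), and the ratio of summed counts was 4.40 with a counting interval of 3.28 to 5.94. HOXD8 stood at 30.2 and 47.7 CPM with DMSO and at 117 and 106 with BRM014, a change of 1.52 (SE 0.33, adjusted p 0.000255). HOXC4 went the other way, from 46.6 and 71.2 CPM to 16.6 and 15.8, a change of -1.85 (SE 0.40, adjusted p 0.000256). These 3 calls held with each of the 4 libraries left out in turn and under 7 other settings of the test.

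HOXD10 had 8 and 6 counts with DMSO and 27 and 19 with BRM014, although the BRM014 libraries were less deep. In CPM it went from 5.03 and 3.45 to 37.2 and 25.1, a log2 change of 2.86 (SE 1.04, adjusted p 0.0403). The call was lost with any 1 library left out (adjusted p up to 0.292), without the filter on low counts (0.0818), and with the replicate number as a block (0.0525), and DESeq2 gave it no adjusted p. HOXD13 had 5 and 8 counts with DMSO and 0 and 0 with BRM014, at least 1.36-fold lower by the exact counting interval (adjusted p 0.0298). Its call held without SK-N-DZ DMSO replicate 1 and was lost with any of the other 3 libraries left out (adjusted p up to 0.165).

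HOXD4 stood at 7.55 and 5.75 CPM with DMSO and at 12.4 and 27.7 with BRM014. Its log2 value of 1.59 (SE 0.71) did not pass (adjusted p 0.109) but did with a correction for base composition and length (2.01, adjusted p 0.0418). HOXD3 stood at 1.89 and 5.17 CPM with DMSO and at 6.90 and 6.59 with BRM014, and its log2 value of 0.90 (SE 0.69) did not pass (adjusted p 0.406). HOXC6 stood at 1.89 and 1.15 CPM and at 4.14 and 2.64, and its value of 1.12 (SE 1.15) did not pass (adjusted p 0.559). Both BRM014 libraries lay above both DMSO libraries for either gene, but HOXC6 rests on 5 counts in each group and HOXD3 on 10 against 12. HOXC9 had 1 count with BRM014 and 3 with DMSO. HOXD9 made up 71 of 263 HOXD member counts with DMSO (exact 95% interval 21.7% to 32.8%) and 35.6% with BRM014 (139 of 390, 30.9% to 40.6%). HOXD10 made up 5.32% (2.94% to 8.77%) and 11.8% (8.77% to 15.4%), and HOXD13 4.94% (2.66% to 8.30%) and 0 of 390, which allows up to 0.941%. Intervals cover counting error only, and no test was made on these shares.

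**Figure D3:**
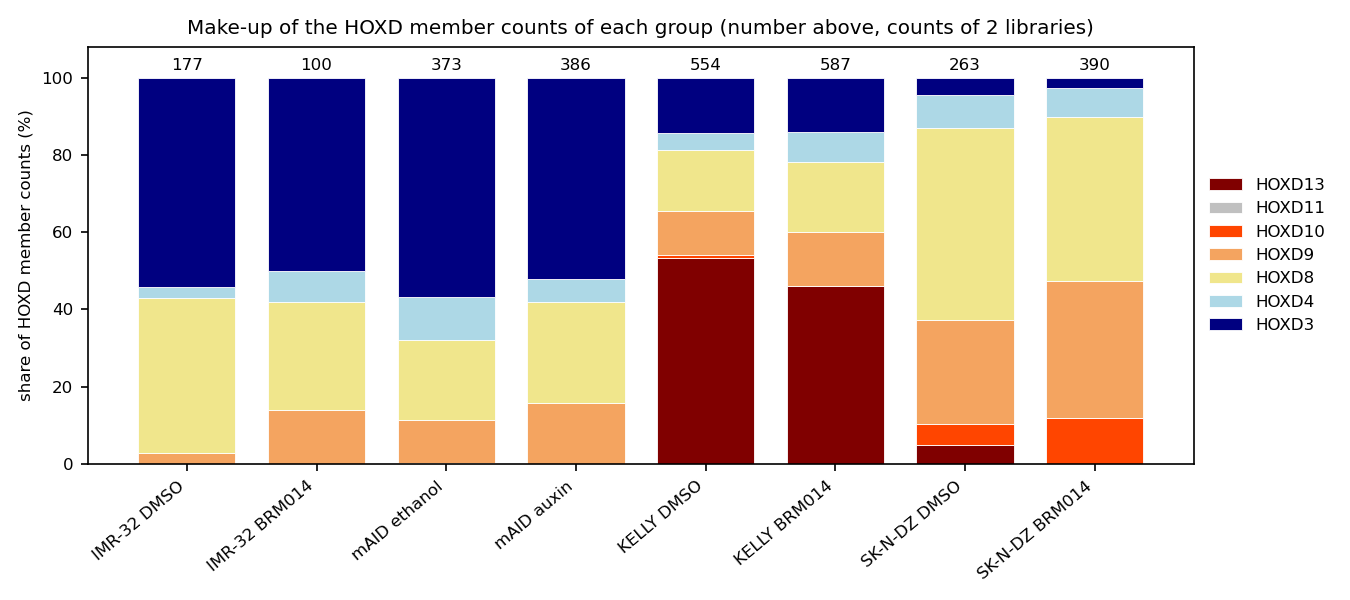
Share of each HOXD member in the HOXD member counts of a group, in percent, with the number of counts from 2 libraries above each bar. HOXD13 makes up 53.2% in KELLY with DMSO, HOXD3 54.2% in IMR-32 with DMSO, and HOXD8 and HOXD9 together most of SK-N-DZ.

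In KELLY 0 of the 9 members tested passed with BRM014 by edgeR, where 11.6% of all genes passed, 0 passed by DESeq2, and 0 had an unadjusted p below 0.05. For all 10 members the libraries of both groups overlapped, where 50.3% of all genes did not overlap. HOXD13 stood at 94.9 and 117 CPM with DMSO and at 97.7 and 81.3 with BRM014, a log2 value of -0.19 with a 95% interval of -0.89 to 0.50. HOXC4 stood at 51.6 and 50.2 and at 44.5 and 51.6 (-0.04, interval -0.69 to 0.61). HOXD8 (0.26, interval -0.44 to 0.95), HOXD9 (0.31, interval -0.53 to 1.14) and HOXD3 (0.01, interval -0.72 to 0.74) had intervals that span 0. Those of HOXD4 (0.83, interval -0.52 to 2.19), HOXC6 (-0.48, interval -1.83 to 0.86) and HOXC9 (0.36, interval -1.66 to 2.38) were wider. HOXD4 had 25 counts with DMSO and 46 with BRM014. HOXD10 had 3 counts with DMSO and 0 with BRM014 (-3.57, interval -8.10 to 0.95). These intervals leave room for sizeable changes in either direction. In the same libraries 6 mesenchymal markers summed to 152 and 207 CPM with DMSO and to 459 in both with BRM014. Of these 6, 1 had 0 counts with DMSO and 3 with BRM014, so the higher sum rested on fewer markers and does not describe the list as a whole.

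In IMR-32, HOXD9 alone passed with BRM014, 1 of 9 members where 12.8% of all genes passed. HOXD10 and HOXD13, with 0 counts in both groups, are among the 9 but could not pass. HOXD9 had 3 and 2 counts with DMSO and 8 and 6 with BRM014, at 2.09 and 1.74 CPM and at 10.8 and 7.74. Both treated libraries lay above both vehicle libraries, and the log2 change was 2.25 (SE 0.78, adjusted p 0.0398). The call was lost with any 1 of the 4 libraries left out (adjusted p up to 0.242) and without the filter on low counts (0.0722). HOXD8 had both treated libraries (18.9 and 18.1 CPM) below both vehicle libraries (28.5 and 26.1), but its value of -0.52 (SE 0.43) did not pass (adjusted p 0.495). HOXD4 had both treated libraries (3.87 to 6.74 CPM) above both vehicle libraries (0.695 to 3.48), on 8 against 5 counts. Its value of 1.43 (SE 1.02) did not pass (adjusted p 0.409). HOXD3 and HOXC4 had values of -0.10 and -0.09, with intervals of -0.86 to 0.66 and -0.97 to 0.80. The treated HOXC4 libraries stood apart at 26.96 and 9.03 CPM.

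Auxin in the SMARCA4-mAID cells changed 0 of the 9 members tested by edgeR, where 2.19% of all genes passed, 0 by DESeq2, and 0 had an unadjusted p below 0.05. HOXD9 stood at 15.3 and 11.0 CPM with ethanol and at 13.1 and 26.7 with auxin (0.62, adjusted p 0.682). HOXD3 stood at 75.7 and 59.8 and at 55.2 and 77.5 (-0.02, interval -0.66 to 0.61), and HOXC4 at 35.9 and 37.8 and at 35.6 and 38.5 (0.01, interval -0.66 to 0.68). HOXD4 had both auxin libraries (4.36 to 10.5 CPM) below both ethanol libraries (11.6 to 14.6). Its value of -0.78 (SE 0.69) did not pass (adjusted p 0.762). HOXC9 had both auxin libraries (2.91 to 4.96 CPM) above both ethanol libraries (0.61 to 2.66). Its value of 1.26 (SE 1.22), on 12 against 5 counts, did not pass (adjusted p 0.795). HOXD10 and HOXD13 stayed at 0 counts in these cells with either agent, as they did in parental IMR-32 cells with BRM014 or DMSO. They are among the 9 members but could not pass. The difference between the BRM014 change in IMR-32 and the auxin change passed for 0 of the 9 members by edgeR, where 1.95% of all genes passed, and for 0 by DESeq2, and 0 members had an unadjusted p below 0.05. For HOXD9 it was 1.64 with an interval of -0.15 to 3.43, and for HOXD4 2.22 with an interval of -0.24 to 4.67. HOXD10 and HOXD13 could not pass here either.

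**Figure D4:**
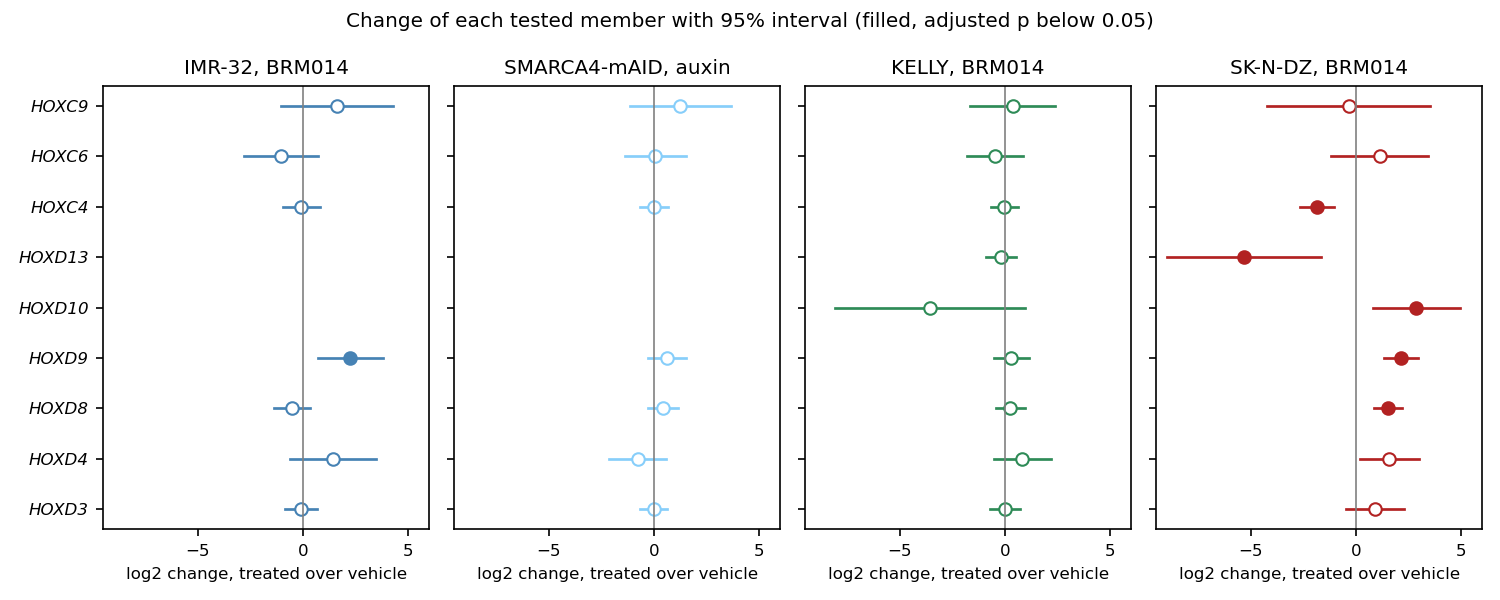
Log2 change of each tested member with treatment, with its 95% interval, for the 4 treatments. Filled points passed at an adjusted p below 0.05, and a member with 0 counts in both groups has no point. In SK-N-DZ 5 members passed, in IMR-32 1, and in KELLY and with auxin none. The values for HOXD13 in SK-N-DZ and for HOXD10 in KELLY are fitted against 0 counts with BRM014 and depend on the prior count.

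The difference of the BRM014 change between lines was tested directly. HOXD8 differed between SK-N-DZ and IMR-32 by 2.03 (SE 0.54, adjusted p 0.0175), 1 of 9 members where 2.61% of all genes passed. HOXC4 differed between SK-N-DZ and KELLY by -1.81 (SE 0.52, adjusted p 0.0275), 1 of 9 where 3.9% passed. The call for HOXD8 was lost with 4 of the 8 libraries left out in turn (adjusted p up to 0.0876), and that for HOXC4 with 6 of the 8 (up to 0.227). HOXD9 differed between SK-N-DZ and KELLY by 1.84 (SE 0.58) with an adjusted p of 0.0549, and passed under 5 other settings (0.0193 to 0.0483). HOXD8 differed between SK-N-DZ and KELLY by 1.26 (SE 0.48), which did not pass (adjusted p 0.145). Between SK-N-DZ and IMR-32 the HOXD9 difference was -0.11 with an interval of -1.41 to 1.19, and HOXC4 passed only without IMR-32 BRM014 replicate 2 (-2.31, adjusted p 0.0345). KELLY and IMR-32 differed in 0 of the 9 members by edgeR, where 3.28% of all genes passed, and in 0 by DESeq2, and HOXD9 alone had an unadjusted p below 0.05 (-1.95, p 0.0304). These comparisons share libraries, and in those with IMR-32 the members HOXD10 and HOXD13, at 0 counts in that line, could not pass.

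Among the other 29 HOX genes, 23 had 0 counts in every labelled library, including 10 of 11 HOXA and 9 of 10 HOXB genes. HOXC8, which lies between HOXC9 and HOXC4, was the one with enough counts to be tested. It had 10 and 17 counts with DMSO and 47 and 42 with BRM014 in KELLY (1.62, SE 0.68, adjusted p 0.120), and 10 and 0 against 14 and 8 in IMR-32 (1.99, SE 0.83, adjusted p 0.105). Neither value passed, although both KELLY BRM014 libraries lay above both DMSO libraries. In the fit on the KELLY groups alone the value passed (1.62, adjusted p 0.0123), and the IMR-32 value passed without IMR-32 DMSO replicate 1 (adjusted p 0.0106). SK-N-DZ had 1 HOXC8 count with either agent. HAGLR did not pass in any of the 4 treatments, and its SK-N-DZ value with BRM014 was -0.21 (SE 0.66).

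Of 11 genes tested that flank the clusters, 2 rose with BRM014 in IMR-32 (12.8% of all genes passed there), 1 in KELLY (11.6%) and 4 in SK-N-DZ (19.4%). None of the 11 passed as lower in these lines, and 0 passed with auxin. In IMR-32 and KELLY these shares were near those of all genes. Their median log2 change in SK-N-DZ was 0.33, against -0.05 over all genes. MTX2, a gene of the mitochondrial outer membrane next to the HOXD3 end, rose by 1.06 (SE 0.31) in SK-N-DZ, a call lost without BRM014 replicate 2 (adjusted p 0.174) or DMSO replicate 2 (0.226). NFE2L2, an oxidative stress factor further out on that side, rose by 0.59 (SE 0.12) in IMR-32, by 0.45 (SE 0.12) in KELLY cells and by 0.46 (SE 0.13) in SK-N-DZ. Its call was lost in IMR-32 without BRM014 replicate 2 (0.119), in KELLY without BRM014 replicate 1 (0.544) or DMSO replicate 2 (0.0670), and in SK-N-DZ with a correction for base composition and length (0.33, adjusted p 0.0637). CBX5, a heterochromatin protein gene near HOXC, rose by 0.31 in IMR-32 and 0.40 in SK-N-DZ. With the composition and length correction both CBX5 values were 0.04 and did not pass, and the IMR-32 call was also lost with library size scaling (0.0522), without the filter on low counts (0.0703) and with any 1 of its 4 libraries left out.

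HOX proteins bind DNA with TALE cofactors of the MEIS and PBX families, and most of those that passed rose with BRM014. Of 9 tested, 2 rose and 1 fell in IMR-32, 3 rose and 1 fell in KELLY, and 5 rose and 1 fell in SK-N-DZ. Over all genes, 12.8%, 11.6% and 19.4% passed in these lines. The median log2 change of the 9 cofactors was 0.14, 1.29 and 1.25 in these lines, against -0.03, -0.01 and -0.05 over all genes. MEIS1 rose by 0.52 (SE 0.10) in IMR-32, by 1.31 (SE 0.13) in KELLY cells and by 1.44 (SE 0.11) in SK-N-DZ. PBX3 rose by 1.29 (SE 0.26) in KELLY and 1.25 (SE 0.26) in SK-N-DZ. With auxin, where 2.19% of all genes passed, 1 of 9 passed, MEIS2 at 1.10 (SE 0.32, adjusted p 0.0435). That call was lost with the composition and length correction (1.01, adjusted p 0.0758), in the fit of only the groups compared (0.246) and without ethanol replicate 2 (0.683) or auxin replicate 2 (0.450).

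Among 32 Polycomb genes tested, which encode the repressors of HOX clusters, 3 rose and 2 fell in IMR-32, 2 rose and 1 fell in KELLY, and 4 rose and 5 fell in SK-N-DZ, with medians of 0.10, 0.03 and 0.09. Over all genes, 12.8%, 11.6% and 19.4% passed in these lines. The Polycomb shares in IMR-32 and KELLY were near those of all genes. CBX2, the chromatin-compacting subunit of Polycomb complex 1, fell by 1.13 (SE 0.14) on the log2 scale in IMR-32, by 0.55 (SE 0.13) in KELLY cells and by 1.37 (SE 0.13) in SK-N-DZ. With auxin CBX2 fell by 0.59 (SE 0.12), the 1 Polycomb gene of 32 to pass there, where 2.19% of all genes passed. The KELLY call was lost with the composition and length correction (-0.27, adjusted p 0.167) and without DMSO replicate 1 (0.336). PHF19, which brings Polycomb complex 2 to its targets, changed by -1.30 (SE 0.27) and PCGF1 by -0.94 (SE 0.17) in SK-N-DZ. With auxin the PCGF1 value was 0.40 (SE 0.15) and did not pass. AEBP2 went the other way, by 0.79 (SE 0.16) in IMR-32 and 0.49 (SE 0.17) in SK-N-DZ. In KELLY its value of 0.40 (SE 0.17) did not pass. The SK-N-DZ call for AEBP2 was lost with the composition and length correction (0.05, adjusted p 0.911). It was also lost without BRM014 replicate 1 (0.49), BRM014 replicate 2 (0.50) or DMSO replicate 2 (0.44). Of 15 genes of MLL complexes and H3K27 demethylases, which favour HOX expression, 1 rose and 1 fell in IMR-32 (KDM6B 1.10, SE 0.31, and KMT2A -0.44, SE 0.12). In KELLY and SK-N-DZ 1 rose, KMT2C by 0.65 (SE 0.12) and 0.49 (SE 0.12), and with auxin 0 passed. The share of the 15 that passed was near that of all genes in IMR-32 (12.8%). It was below that of all genes in KELLY (11.6%) and SK-N-DZ (19.4%). In IMR-32 the KDM6B call was lost without BRM014 replicate 2 (adjusted p 0.112) or DMSO replicate 2 (0.139), and the KMT2A call without BRM014 replicate 2 (0.0743) or DMSO replicate 1 (0.0773). In SK-N-DZ the KMT2C call was lost with the composition and length correction (0.22, adjusted p 0.239) and without BRM014 replicate 1 (0.0933) or DMSO replicate 2 (0.0716).

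Of 12 tested genes of retinoid and CDX signalling, none rose with BRM014, and 3 fell in IMR-32, 1 in KELLY and 2 in SK-N-DZ. Over all genes, 12.8%, 11.6% and 19.4% passed in these lines. The KELLY and SK-N-DZ shares of the list were near those of all genes. RARA, a retinoic acid receptor, fell by 1.77 (SE 0.39) on the log2 scale in IMR-32, by 2.30 (SE 0.34) in KELLY cells and by 2.18 (SE 0.29) in SK-N-DZ. The IMR-32 call was lost without BRM014 replicate 1 (adjusted p 0.0635) or DMSO replicate 2 (0.0550). Its value with auxin was 0.08 (SE 0.26). STRA6, a retinol uptake receptor, went from 36 counts to 0 in IMR-32, at least 5.44-fold lower, and RXRG, a retinoid X receptor, from 26 to 0, at least 3.85-fold lower. In SK-N-DZ, STRA6 fell from 71.7 and 96.5 CPM to 22.1 and 47.5, a log2 change of -1.26 (SE 0.36, adjusted p 0.00581). That call was lost with DESeq2 (0.139), with the composition and length correction (-0.69, adjusted p 0.191) and without SK-N-DZ BRM014 replicate 1 (0.206) or DMSO replicate 2 (0.0929). The RXRG call was lost without BRM014 replicate 1 (0.112), BRM014 replicate 2 (0.113) or DMSO replicate 2 (0.0932). In KELLY the STRA6 value was 0.51 (SE 0.30) and did not pass, but did with the composition and length correction (0.89, adjusted p 0.0341). The lists share no gene with the 10 members.

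**Figure D5:**
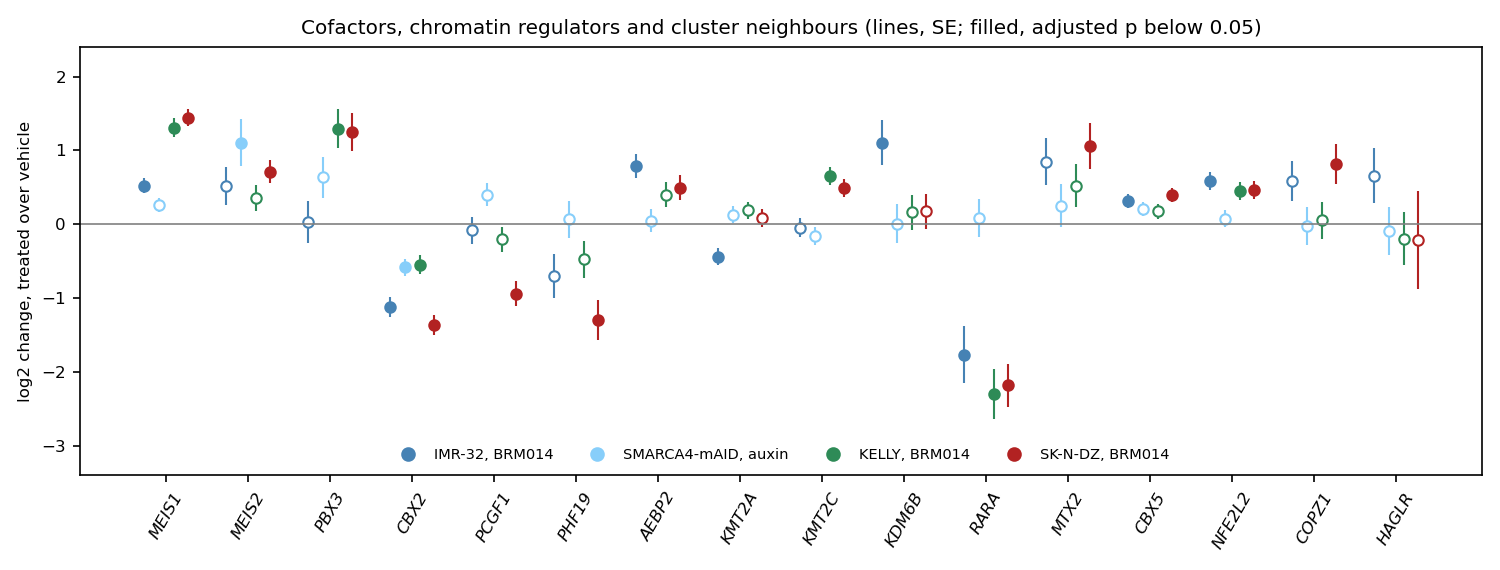
Log2 change with treatment, and its SE, of 16 cofactors, chromatin regulators, a retinoid receptor and cluster neighbours. Filled points passed at an adjusted p below 0.05. MEIS1 is higher and RARA and CBX2 are lower with BRM014 in all 3 lines.

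The genes whose log2 CPM followed HOXC4 most closely over the 16 labelled libraries, among 6241 compared, were UCHL1 (Pearson r 0.87), RPL13A (0.87) and RBBP8 (0.87). For HOXD8 they were TOP2A (0.85), TPX2 (0.85) and MARK2 (0.85). The libraries share lines, treatments and depth differences, so these are descriptions only.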

How the data were processed

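Newly made messenger RNA was measured after 4sU labelling in 16 libraries of 8 groups, with 2 unlabelled libraries beside them. The authors deposited raw counts per gene symbol for each library. HISAT, HTSeq, DESeq2 and hg38 are named, per the submitters' processing notes, without roles or versions. No source used here states how a read came to be counted as converted. Capture was on poly(dT), per the labels' protocols, so new RNA without a poly(A) tail was not counted. In labelled libraries, 46.4% to 57.4% of the listed total was assigned to no feature and 1.11% to 1.71% was ambiguous, and neither entered library sizes.

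CPM were computed over gene rows. Tests used edgeR 4.0.16 in R 4.3.3 (two-sided quasi-likelihood F test, TMM scaling, filterByExpr with a minimum count of 10, which kept 12853 genes). All 16 labelled libraries entered 1 fit of group means with 8 residual degrees of freedom, which pools the spread over groups of 2. The spread of a gene was also drawn toward that of other genes. Tests and intervals of log2 values used the larger total degrees of freedom that follow. P-values were adjusted by Benjamini-Hochberg over all 12853 genes within each of 12 comparisons, and genes passed below 0.05. Intervals of shares and count ratios are exact (Clopper-Pearson) at 95%. Where a group had 0 counts, the fold given is the limit of that interval nearest to no difference. The code was tested on simulated data. Alternatives were DESeq2 1.42.0, library size scaling, no filter, a stricter filter with a minimum count of 30, only the groups compared, the replicate number as a block, a correction for base composition and length, TMM-scaled CPM for levels, and each library left out in turn.

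The members and gene lists were chosen with earlier results of these data known. Named genes are the 10 members, up to 4 genes of each list with the smallest p in any treatment, and the 3 genes most correlated with the most abundant HOXC and HOXD member. The values of 1 gene that this rule selects are not reported here. The lists were other HOX genes, non-coding RNAs of the clusters, flanking genes, TALE cofactors, Polycomb subunits, MLL complexes and H3K27 demethylases, retinoid and CDX inputs, and cell type markers. Promoters came from RefSeq.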

Additional observations from a re-analysis of the deposited data

Results flagged for a closer look

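HOXD8 changed differently with BRM014 in SK-N-DZ and in IMR-32: the difference of the log2 changes was 2.03 (SE 0.54, adjusted p 0.0175 by edgeR), with both SK-N-DZ BRM014 libraries above and both IMR-32 BRM014 libraries below their DMSO libraries. HOXC4 changed differently in SK-N-DZ and in KELLY, by -1.81 (SE 0.52, adjusted p 0.0275), with both SK-N-DZ BRM014 libraries below their DMSO libraries and the KELLY libraries overlapping.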

How the results depend on the processing

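The number of members passing with BRM014 in IMR-32 was 1 (HOXD9, a call lost with any library left out), and 0 without the filter on low counts. It was also 0 in the fit of only the groups compared, where HOXD9 did not pass the filter on low counts and was not tested. In SK-N-DZ it was 5, 4 to 6 under other settings (6 with the composition and length correction, where HOXD4 passed), and 3 to 4 with a library left out. For KELLY against IMR-32 it was 3, and 4 with library size scaling, the composition and length correction or only the groups compared. For SK-N-DZ against IMR-32 it was 6, and the HOXD10 call was lost with DESeq2 (4.77, adjusted p 0.549). With all libraries kept, the other called members passed in each setting that tested them. HOXC6, HOXD10 and HOXD13 lost their calls with at least 1 of the 4 libraries left out in turn. For the SMARCA4-mAID cells against parental cells the number was 2, 3 with only the groups compared and 1 with the composition and length correction. The calls for HOXD4 and HOXD9 there were lost with several of the libraries left out in turn. For the difference of BRM014 changes between SK-N-DZ and IMR-32 it was 1 and then 0 to 1. Between SK-N-DZ and KELLY it was 1 and 2 with DESeq2, library size scaling, the stricter filter, the composition and length correction and only the groups compared, and 0 to 1 with a library left out. Apart from members that a filter removed, the cause of these shifts was not tested. No called value changed sign under the alternatives run. The stricter filter left 10062 genes and 7 members. With so few counts for HOXC9, HOXD10, HOXD11 and HOXD13 outside 1 line, depth limits what can be detected there.

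With the replicate number as a block, 1 call among the members was lost, HOXD10 in SK-N-DZ with BRM014 (2.86, adjusted p 0.0525), and no other member's call changed. The numbers are not known to pair the samples: deviations of same-numbered libraries correlated at 0.00, -0.04, 0.01 and -0.01 over 6241 genes in the 4 treated and vehicle pairs.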
